A study of Mus musculus with 516 samples.

Results

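The genes described here are 5 sodium channel genes of sensory neurons and their glia, Scn9a, Scn10a, Scn11a, Scn4b and Scn7a, chosen by name, and all 5 are among the 11251 genes of the table. They were followed across 516 cells, 243 of C57BL/6 and 273 of CAST/Ei mice, taken from dorsal root ganglia, where the cell bodies of somatosensory neurons lie. Per the labels, 306 cells were captured straight after dissociation (naive), 25.6% of all cells being C57BL/6 and 33.7% CAST/Ei. The other 210 cells, 99 of them CAST/Ei, were captured after an in vitro axotomy, in which dissociated cells spent 48 h in culture with the mitotic inhibitor ara-C added at 24 h. The latter are labelled injured and are called cultured here. C57BL/6 is the laboratory strain of the mouse reference genome, and CAST/Ei is an inbred strain of another mouse subspecies. Dissociation itself cuts the axons of every cell, naive cells included, and no age, sex, animal or culture is named in the labels used here. Each group is therefore 1 sample without replicates: no difference below has a replicate check, and no test was made. Intervals (95%) of levels and folds cover counting error of the reads only. Those of shares of cells count the cells of a group as independent draws, and cells are not replicates of it.

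Voltage-gated sodium channels open when the membrane depolarises and carry the rising phase of the action potential. Each consists of a pore-forming alpha subunit, which can be joined by smaller beta subunits that alter gating and placement in the membrane. Scn9a encodes Nav1.7, an alpha subunit that amplifies small depolarisations in pain-sensing neurons (nociceptors) and whose loss in humans abolishes pain. Scn10a encodes Nav1.8, which carries most of the current of the upstroke in nociceptors, and Scn11a encodes Nav1.9, which carries a slow, persistent current near the resting potential. Scn4b encodes the beta 4 subunit, known for its part in the resurgent current that supports rapid firing. Scn7a encodes Nax, a relative of the alpha subunits that is not opened by voltage in the usual way and is known from glia and from sensory neurons.

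The 5 genes lie in 2 neighbourhoods plus 1 single position (GENCODE annotation, GRCm38, the same assembly as mm10). Scn9a (chromosome 2, 66480080 to 66634962, minus strand) and Scn7a (chromosome 2, 66673425 to 66784914, minus strand) are 38.5 kb apart. Scn10a (chromosome 9, 119608456 to 119719322, minus strand) and Scn11a (chromosome 9, 119753759 to 119825456, minus strand) are 34.4 kb apart. Scn4b (chromosome 9, 45138395 to 45154152, plus strand) stands 8.32 kb from another beta subunit gene, Scn2b. Only Scn9a overlaps other annotated genes, an antisense gene (Gm13629), a pseudogene (Gm13627) and a small RNA gene (Gm23046). Strand use in the counting is not given in the sources used here, so reads of Scn9a and of its antisense partner cannot be told apart.

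Because Scn9a, Scn10a, Scn11a and Scn7a were lower after culture in both strains (below), the stretches just before the annotated starts of Scn9a, Scn7a and Scn11a are shown. They are RefSeq sequences of GRCm38.p6, read in the direction of transcription and ending at the base before the gene. They cover chr2:66634963-66635212 (Scn9a), chr2:66784915-66785160 (Scn7a) and chr9:119825457-119825706 (Scn11a), all on the minus strand. Capitals mark CACCC or its reverse complement, the core that KLF factors are known to bind. Windows of Scn10a and Scn4b are not shown because their RefSeq starts lie inside exons of the GENCODE annotation.
Scn9a: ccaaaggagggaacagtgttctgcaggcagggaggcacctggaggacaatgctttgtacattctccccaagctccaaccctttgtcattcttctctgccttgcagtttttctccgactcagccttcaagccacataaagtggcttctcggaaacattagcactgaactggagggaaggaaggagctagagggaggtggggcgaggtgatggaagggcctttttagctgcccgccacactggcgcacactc
Scn7a: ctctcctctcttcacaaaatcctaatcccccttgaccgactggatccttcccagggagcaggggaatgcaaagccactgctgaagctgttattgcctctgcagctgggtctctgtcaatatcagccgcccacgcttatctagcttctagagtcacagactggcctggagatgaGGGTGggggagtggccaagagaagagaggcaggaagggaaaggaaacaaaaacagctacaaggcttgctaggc
Scn11a: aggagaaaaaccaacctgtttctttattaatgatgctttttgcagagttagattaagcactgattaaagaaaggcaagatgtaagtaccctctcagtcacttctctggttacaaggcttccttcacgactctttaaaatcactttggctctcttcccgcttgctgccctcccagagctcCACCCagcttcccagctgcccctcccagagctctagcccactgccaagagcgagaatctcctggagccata
The core occurs once each before Scn7a and Scn11a, 4 times in the window of Scn10a and not in those of Scn9a and Scn4b, and 52% of 32841 mouse promoter windows of 250 bases hold it on either strand. None of the 5 windows held the RUNX core TGTGGT (14% of windows do), the AP-1 motif TGANTCA (6.75%), the homeodomain core TAATTA (4.84%) or the cAMP response element TGACGTCA (1.55%), sought on both strands. The windows of Scn10a and Scn4b lie in annotated exons over 250 and 229 of their 250 bases, so their counts are wholly or mostly of sequence inside the gene. These matches describe letters in short windows and say nothing about binding.

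The 516 cells held 13932 to 2978345 reads each, with a median of 839147, and group medians ran from 696013 to 1111710. Cells were sorted into 13 clusters without any of the 12 sodium channel genes in the table. A cluster was counted as neuron-list cells where the mean of 19 neuron markers was at least 4-fold above that of every other cell type list, a margin chosen after seeing the data. This gave 272 naive cells (87.9% of those of C57BL/6 and 89.7% of CAST/Ei), 37 from the C57BL/6 culture (33.3%) and 76 from the CAST/Ei culture (76.8%). The other cells were cluster 7 in the naive groups (16 and 18 cells, led by endothelial and interferon-induced genes, unnamed), and in the cultured groups the fibroblast-like cluster 3 (43 and 12 cells) and the glia-like cluster 6 (31 and 11 cells). Cluster 7 had the neuron list highest by mean log2 level but missed the margin. In summed reads its glial list stood above its neuron list, at 13637 against 6068 CPM in C57BL/6 and 22614 against 5982 CPM in CAST/Ei. Cluster 9 (31 naive C57BL/6 cells) counts as neuron-list cells but stays unnamed, since Rgs5, a marker of mural cells, was among its leading genes at 3442 CPM, while the mural markers Acta2 and Pdgfrb stood at 0.257 and 1.29 CPM. Clusters 2, 5, 6 and 12 are named from their marker means alone, with none of their own markers among their 10 leading genes, and clusters 2 and 5 hold all but 2 of the cultured neuron-list cells. The cultured neuron-list counts depended on the method. Ward clusters gave 35 C57BL/6 and 60 CAST/Ei cells, and each cell's own marker means gave 29 and 62. Levels are reads of the gene per 1000000 reads (CPM) of all reads summed over the cells of a group, and a ratio is the log2 ratio of CPM + 1. A gene is called higher or lower where the ratio passes 2-fold. In summed cells, fewer cells with a gene and less RNA per cell cannot be told apart, and per-cell values are therefore given beside the sums.

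Scn9a was the most evenly present of the 3 nociceptor channels in naive neurons. In naive C57BL/6 neuron-list cells the lowest cell had 43.1, the median cell 789 and the highest 3149.6 CPM, and in naive CAST/Ei cells the values were 215, 937 and 3733 CPM. No naive neuron-list cell lacked a read. In cultured C57BL/6 cells the lowest, median and highest values were 0, 158.7 and 709 CPM, and in cultured CAST/Ei cells 0, 61.6 and 684 CPM. The cultured cells thus lay mostly below the naive ones, with overlapping tails. Over the summed cells Scn9a stood at 855 CPM (849 to 861) in naive and 174.5 CPM (168.8 to 180.3) in cultured C57BL/6 cells, 4.9-fold lower (4.74 to 5.07). The CAST/Ei sums were 1113 CPM (1108 to 1118) and 142.7 CPM (140.1 to 145.3), 7.8-fold lower (7.66 to 7.95).

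Scn10a showed a wider spread and a deeper difference. Naive C57BL/6 neuron-list cells ran from 0 through a median of 303 to 2524 CPM, with 5 cells (4.31%) without a read, and naive CAST/Ei cells from 49.6 through 609.6 to 6305 CPM. After culture the median cell had 6.71 CPM in C57BL/6 (highest 364) and 9.5 CPM in CAST/Ei (highest 1145), and 17 of 37 and 26 of 76 cells had no read. The upper quartile of cultured cells thus lay below the lower quartile of naive cells in both strains, while single cells reached naive levels. The sums were 366 CPM (362 to 369) naive and 33.2 CPM (30.8 to 35.8) cultured in C57BL/6, 11-fold lower (10.2 to 11.9). In CAST/Ei they were 640.4 CPM (636 to 644) and 57.5 CPM (55.9 to 59.2), 11.1-fold lower (10.8 to 11.5).

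Scn11a had the largest difference of the 5 genes in both strains. Naive C57BL/6 neuron-list cells had 0, 242 and 1302 CPM at the lowest, median and highest, and naive CAST/Ei cells 25.4, 389.5 and 1986 CPM. In culture the median cell had 2.37 CPM in C57BL/6 (highest 175.2) and 0 in CAST/Ei (highest 643), where 44 of 76 cells had no read. The sums were 350.2 CPM (346 to 354) against 18 CPM (16.2 to 19.9) in C57BL/6, 19.5-fold lower (17.6 to 21.6), and the cultured level was 12 CPM without its richest cell. They were 427 CPM (424 to 430.4) against 19.5 CPM (18.5 to 20.5) in CAST/Ei, 21.9-fold lower (20.9 to 23). A single cultured CAST/Ei cell gave 53.8% of that group's Scn11a reads. This cell fell into cluster 4, otherwise made of naive cells, and without the cell richest in Scn11a in each sum the cultured level was 9.16 CPM and the log2 ratio -5.37 in place of -4.39.

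Scn7a was lower after culture by a fold near that of Scn9a. Naive C57BL/6 cells had 55.6, 593 and 3549 CPM at the lowest, median and highest and naive CAST/Ei cells 53.3, 395 and 2539 CPM, so that no naive neuron-list cell lacked it. Cultured C57BL/6 cells had a median of 114.2 CPM (highest 1173) and cultured CAST/Ei cells one of 14 CPM (highest 1103), with 5 of 37 and 24 of 76 cells without a read. The highest cultured cells thus reached the upper naive range in both strains. The sums were 886 CPM (880.2 to 892) against 164.2 CPM (158.8 to 169.8) in C57BL/6, 5.4-fold lower (5.21 to 5.59). In CAST/Ei they were 633 CPM (629.5 to 637) against 85.5 CPM (83.5 to 87.5), 7.41-fold lower (7.23 to 7.6).

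Scn4b, the only beta subunit of the 5, did not share this pattern in both strains. In C57BL/6 it was scarce: naive cells ran from 0 through a median of 1.98 to 341 CPM, with 42.2% without a read, and cultured cells from 0 through 0 to 17.3 CPM. The sum went from 10.6 CPM (9.99 to 11.3) to 1.3 CPM (0.859 to 1.9), 8.15-fold lower (5.57 to 12.4), the cultured value resting on 27 reads. Without the richest cell of each sum the levels were 9.4 and 0.702 CPM. In CAST/Ei naive cells had 0, 30.6 and 586 CPM at the lowest, median and highest and cultured cells 0, 11 and 1388 CPM. The sum was higher in culture, 90.3 CPM (88.3 to 92.4) against 63.7 CPM (62.5 to 65), a log2 ratio of 0.50, while the median cell was lower. One cell of cluster 2 gave 44.5% of the cultured reads, and without the richest cell of each sum the ratio was -0.20. The direction of the CAST/Ei difference of Scn4b thus changed with 1 cell.

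**Figure D1:**
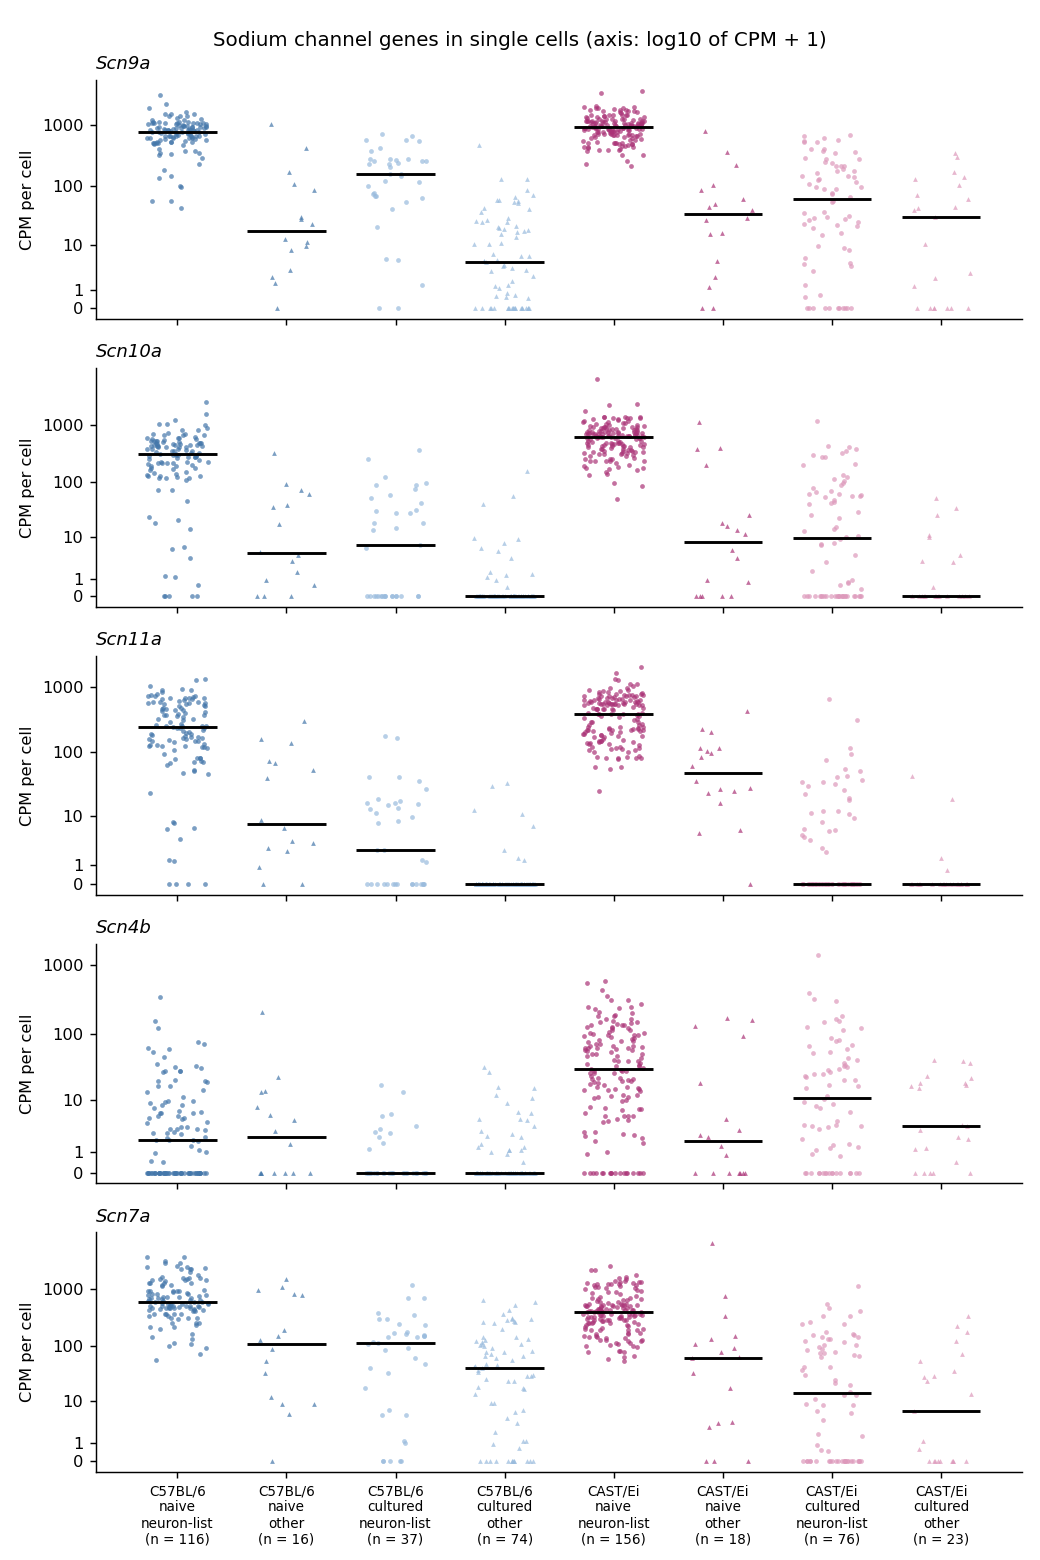
Level of each of the 5 genes in single cells, in CPM on a log10 scale of CPM + 1, for the 4 groups and for neuron-list cells (circles) and other cells (triangles). Black lines are medians. In naive neuron-list cells Scn9a and Scn7a have no cell at 0, while medians of cultured neuron-list cells are lower for all 5 genes.

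Counted together, 5 of 5 genes were at least 2-fold lower in cultured C57BL/6 neuron-list cells and 4 of 5 in CAST/Ei, against 23.6% and 20.4% of all genes with at least 1 CPM in either sum. The median log2 ratio of the 5 was -2.42 in C57BL/6 and -2.95 in CAST/Ei, beside -0.06 and 0.10 for all genes. The genes were chosen with earlier results of these data in view, so these counts are descriptions. The ratio of Scn11a stood at percentile 0.721 of the genes tested in C57BL/6 and at 0.391 in CAST/Ei. Naive and cultured cells are different cells, so a change within neurons and a change in which neurons were captured cannot be told apart. Glial transcripts moved with culture too. The 18 glial markers, each with a read in all 4 sums, added up to 3650.0 CPM in naive and 4373 CPM in cultured C57BL/6 neuron-list cells, and to 2779 and 4401 CPM in CAST/Ei. Leaving out the neuron-list cells highest in glial markers kept 15 cultured C57BL/6 and 36 cultured CAST/Ei cells. Each of these 5 and 4 genes was then still at least 2-fold lower, and Scn4b in CAST/Ei was higher at a log2 ratio of 1.08. The median log2 ratio of all genes in that setting was -0.69 in C57BL/6 and -0.10 in CAST/Ei, so in C57BL/6 genes in general were lower too.

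**Figure D2:**
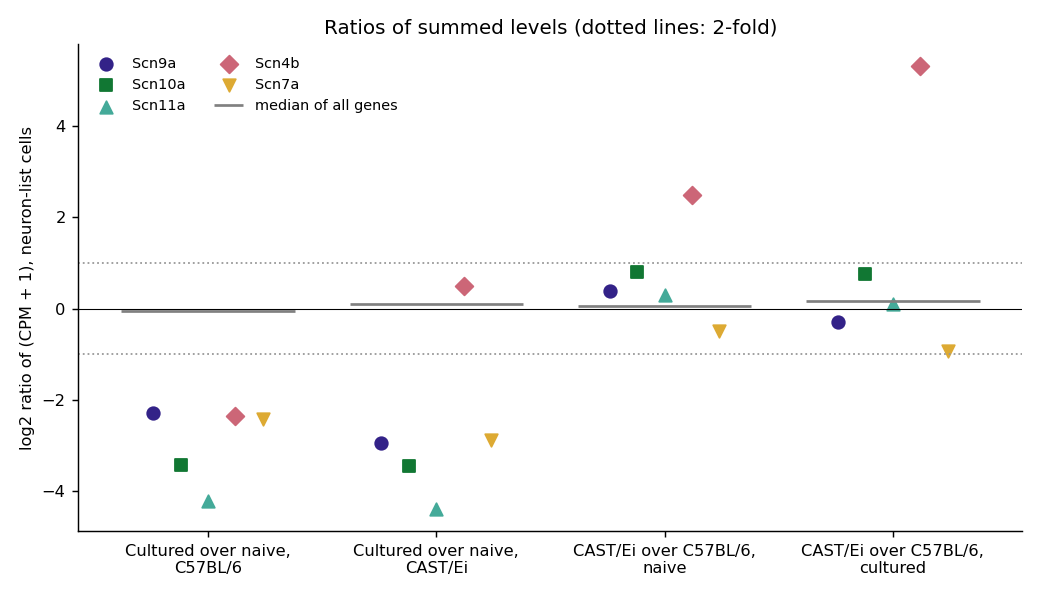
log2 ratio of CPM + 1 of the summed neuron-list cells for each gene in the 4 comparisons, with the median of all genes as a grey bar and 2-fold as dotted lines. Scn9a, Scn10a, Scn11a and Scn7a lie below the lower dotted line after culture in both strains, and Scn4b lies above the upper line in both strain comparisons.

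Cultured neuron-list cells fell into 2 clusters that differed in these genes. Cluster 5 (23 C57BL/6 and 31 CAST/Ei cells) had a median of 9015 genes with a read per cell, and cluster 2 (13 and 44 cells) had 5382. Scn10a in cluster 5 had a median cell of 27.4 CPM in C57BL/6 and 54.1 CPM in CAST/Ei, and in cluster 2 the median cell had 0 in both. Of the 13 C57BL/6 cells of cluster 2, 12 had no Scn10a read, and the sum of the 13 was 0.0977 CPM (0.00247 to 0.544) against 55.9 CPM (51.3 to 60.7) in cluster 5. Scn7a likewise had medians of 147.2 and 87 CPM in cluster 5 against 1.22 and 0 CPM in cluster 2, and Scn9a of 236 and 146.7 against 42.1 and 15.3 CPM. Scn11a had medians of 9.38 and 12 CPM in cluster 5 and of 0 in cluster 2 of both strains. Its C57BL/6 sum was nevertheless higher in cluster 2 (17.7 against 10.3 CPM), where 1 cell gave 72.9% of the reads. Scn4b sums ran the other way, with 20.4 CPM in cluster 5 and 118.2 CPM in cluster 2 in CAST/Ei, and 0.806 and 1.86 CPM in C57BL/6, from 8 and 19 reads. Across cultured cells the number of genes with a read moved with Scn9a, Scn10a, Scn11a and Scn7a (Spearman rho 0.41, 0.52, 0.32 and 0.47 over 37 C57BL/6 cells, and 0.55, 0.56, 0.61 and 0.63 over 76 CAST/Ei cells) and not with Scn4b (0.04 and -0.15), and its part in the levels was not tested. Cells of a cluster share its culture and preparation, so these coefficients are descriptions. Taking cluster 5 alone as the cultured neurons, Scn9a, Scn10a, Scn11a and Scn7a were still at least 2-fold lower than in naive cells in both strains, while Scn4b in CAST/Ei was then lower at a log2 ratio of -1.60. One cultured cell of each strain fell into a cluster of naive cells. The C57BL/6 one had 430.5 CPM of Scn9a, 245 of Scn10a and 165.1 of Scn11a, and the CAST/Ei one 684, 415 and 643 CPM, all inside the naive ranges.

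Shares of cells were compared after each cell was thinned to 100000 reads, with at least 3 reads counted as detection. All 261 naive neuron-list cells of that depth had both Scn9a and Scn7a, and without thinning all 272 did. Scn10a was detected in 87.4% (79.7 to 92.9, exact Clopper-Pearson interval) and 100% (97.6 to 100) of naive cells and in 40.6% (23.7 to 59.4) and 41.1% (29.7 to 53.2) of cultured ones. Scn11a went from 90.1% (83 to 94.9) and 99.3% (96.3 to 100) to 21.9% (9.28 to 40) and 17.8% (9.84 to 28.5). Unthinned, cultured cells had Scn10a in 45.9% and 56.6%, Scn11a in 40.5% and 31.6% and Scn9a in 89.2% and 80.3%, in the same strain order. Detection of Scn9a went from every cell to 84.4% (67.2 to 94.7) in cultured C57BL/6 and 60.3% (48.1 to 71.5) in cultured CAST/Ei cells. Scn4b was found in 14.4% (8.47 to 22.4) and 54% (45.7 to 62.2) of naive cells, in 34.2% (23.5 to 46.3) of cultured CAST/Ei cells and in 0 of 32 cultured C57BL/6 cells. At this thinned depth a count of 0 allows a share of up to 9.38% by the limit of 3 counts and up to 10.9% by the exact interval. Unthinned, 41.4%, 83.3%, 64.5% and 5.41% of these cells had it. All 3 nociceptor channels were found together in 87.4% and 99.3% of naive cells and in 12.5% (4 of 32) and 12.3% (9 of 73) of cultured ones. Scn9a was the only one of the 3 in 11 naive C57BL/6 cells (9.91%), in no naive CAST/Ei cell, and in 12 of 32 and 19 of 73 cultured cells. As background, Scn10a was detected in 2 of 70 other cells of the C57BL/6 culture and 2 of 23 of the CAST/Ei culture. Other cells of the naive groups had it in 40% and 25%, and Scn11a in 46.7% and 68.8%. In other cells of the cultures Scn11a was found in 4.29% and 8.7%, Scn9a in 27.1% and 39.1% and Scn4b in 4.29% and 30.4%. Scn9a was the only one of the 3 in 16 of 70 and 8 of 23 of these cultured cells. Detection was thus not confined to neuron-list cells. The shallowest cells, 5 and 6 naive and 5 and 3 cultured neuron-list cells, were left out.

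Strains differed most in Scn4b. In naive neuron-list cells it was 5.99-fold higher (5.62 to 6.4) in CAST/Ei than in C57BL/6, and in cultured cells 69.2-fold higher (47.6 to 105.1), the latter against only 27 C57BL/6 reads. Without the richest cell of each sum, both calls held, at log2 ratios of 2.54 and 4.95. It was the only one of the 5 genes past 2-fold, where 7.29% of all genes were higher and 6.25% lower in naive CAST/Ei cells and 21.8% higher and 14.3% lower in cultured ones. Scn10a was 1.75-fold higher (1.73 to 1.77) in naive and 1.73-fold higher (1.6 to 1.88) in cultured CAST/Ei cells, and 2-fold was passed in cultured cells without the richest cell of each sum, at a log2 ratio of 1.13. Over the alternative settings the cultured log2 ratio ran from 0.58 to 5.13. In cluster 2 CAST/Ei had 37.3 CPM of Scn10a against 0.0977 CPM in C57BL/6, the latter from 1 read, and in cluster 5 86.3 against 55.9 CPM. Scn9a was 1.3-fold higher (1.29 to 1.31) in naive CAST/Ei cells and 1.22-fold lower (1.18 to 1.27) in cultured ones. The cultured direction was not stable, with log2 ratios from -0.60 to 0.04 over the alternative settings. Scn11a differed least, 1.22-fold higher (1.2 to 1.24) in naive CAST/Ei cells, and in cultured cells its counting intervals overlapped between strains. The cultured clusters described above lay in opposite order, however: CAST/Ei was higher in cluster 5 (23.1 against 10.3 CPM, log2 ratio 1.10) and lower in cluster 2 (3.44 against 17.7 CPM, log2 ratio -2.07), both past 2-fold. The cluster 2 sums of Scn11a rest largely on 1 cell per strain, which gave 72.9% of the C57BL/6 and 69.4% of the CAST/Ei reads. The median cell there had 0 in both strains. Scn7a was 1.4-fold lower (1.39 to 1.41) in naive and 1.92-fold lower (1.84 to 2) in cultured CAST/Ei cells, past 2-fold under median-of-ratios scaling (log2 ratio -1.13). Without the cells highest in glial markers the cultured ratio of Scn7a was 0.24, beside a median of 0.46 for all genes. The part of CAST/Ei sequence variants, which can keep reads from matching a C57BL/6 reference, was not tested. The strain comparisons and the culture comparisons share groups and are not independent of each other.

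The order of levels can be read across the 8 combinations of group and class. Naive neuron-list cells of both strains came first for Scn9a, Scn10a, Scn11a and Scn7a, and their interquartile ranges of cells overlapped between strains. For Scn9a, Scn10a and Scn11a the interquartile ranges of cells of both lay above those of the other 6 combinations. For Scn7a they did not, since the range of other cells of naive C57BL/6 (11.2 to 793 CPM) overlapped that of naive neurons of C57BL/6 (418 to 1149.6) and of CAST/Ei (229.9 to 633). For Scn4b the order was cultured CAST/Ei, naive CAST/Ei and then the other cells of naive CAST/Ei, with naive C57BL/6 neurons only sixth, and each neighbour's range overlapped the next. Between genes, levels can be compared only per kilobase of exon (the union of annotated exons, 12.77 kb for Scn9a, 7.97 for Scn10a, 5.93 for Scn11a, 4.98 for Scn4b and 7.34 for Scn7a). On that scale naive C57BL/6 cells had 120.8 CPM per kb of Scn7a, 66.9 of Scn9a, 59 of Scn11a, 45.9 of Scn10a and 2.13 of Scn4b. Naive CAST/Ei cells had 87.1 of Scn9a, 86.3 of Scn7a, 80.4 of Scn10a, 72 of Scn11a and 12.8 of Scn4b. The alpha-type genes thus lay within 3-fold of each other in naive cells.

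Other cells had less of the 3 nociceptor channels. Scn10a in other cells stood at 44.8 CPM (41.6 to 48.1) and 110 CPM (104.8 to 115.4) in the naive and at 2.54 CPM (2.19 to 2.92) and 5.13 CPM (4.38 to 5.98) in the cultured groups (C57BL/6 and CAST/Ei in turn). Neuron-list cells were 8.16-fold, 5.82-fold, 13.1-fold and 11.2-fold higher. Scn11a behaved alike, with folds of 6.13 and 4.38 in the naive and 17.4 and 5.82 in the cultured groups. These folds rest in part on single cells: without the richest one, other cells had 23.4 and 58 CPM of Scn10a in the naive groups and 0.994 CPM of Scn11a in the CAST/Ei culture. Scn9a was 8.66-fold and 12.6-fold higher in naive and 9.38-fold higher in cultured C57BL/6 neuron-list cells, but 1.65-fold higher in cultured CAST/Ei cells, where other cells had 86.3 CPM (83.1 to 89.6). Of the 5 genes, 4, 3, 3 and 3 were at least 2-fold higher in neuron-list cells in the order naive C57BL/6, its culture, naive CAST/Ei and its culture, against 33.2%, 18%, 31.6% and 22% of all genes. None was at least 2-fold lower, against 24.5%, 23.7%, 23.8% and 19.1%. The other naive cells, cluster 7, also held neuron transcripts such as Snap25 (852 and 1459 CPM), and 1 cell each gave 51.5% and 49.9% of their Scn10a reads. Their low levels of Scn9a, Scn10a and Scn11a are therefore not shown to come from non-neuronal cells.

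Per kilobase of exon, Scn7a had the highest sum of the 5 genes in other cells of naive C57BL/6 (41.5 CPM per kb), of its culture (12.7) and of naive CAST/Ei (74.4), but in the CAST/Ei culture Scn9a was higher (6.76 against 6.43). Other cells had 305 CPM (296 to 313) and 546 CPM (534 to 558) in the naive groups and 93.1 CPM (90.9 to 95.2) and 47.2 CPM (44.8 to 49.6) in the cultured ones. In naive CAST/Ei other cells 1 cell with 6228 CPM gave 85.8% of the reads, the median cell had 62.2 CPM, and without that cell the level was 84 CPM, beside 80.4 CPM of Scn11a without its own richest cell. Neuron-list cells were then over 2-fold higher, at a log2 ratio of 2.85 without the richest cell of each sum in place of 0.21. In the C57BL/6 culture Scn7a had 84.3 CPM (80.9 to 87.8) in glia-like cluster 6 and 98 CPM (95.2 to 100.8) in fibroblast-like cluster 3. The CAST/Ei culture had 50.1 CPM (46.8 to 53.6) and 43.8 CPM (40.5 to 47.3), so the sums of the 2 clusters lay close within each strain. Their median cells did not keep 1 order, with 59.9 CPM in cluster 6 and 34.2 in cluster 3 in C57BL/6, and 1.19 and 15 CPM in CAST/Ei. The glial marker Sox10, a transcription factor, was at 202 CPM in cluster 6 of C57BL/6 and at 71.6 CPM in cluster 3. In CAST/Ei these clusters had 154.8 and 18.1 CPM. The neuron-list clusters 2 and 5 held Sox10 too, at 82 and 86.4 CPM in C57BL/6 and at 193.9 and 64.5 CPM in CAST/Ei. Thinned to equal depth, Scn7a was found in 58.6% (46.2 to 70.2) of other cells and 68.8% (50 to 83.9) of neuron-list cells of the C57BL/6 culture, and in 34.8% (16.4 to 57.3) and 47.9% (36.1 to 60) of the CAST/Ei culture. The unthinned shares were 75.7% and 60.5% in neuron-list cells and 71.6% and 52.2% in other cells. Thinned to 200000 reads, neuron-list and other cells of the CAST/Ei culture had 54.4% and 54.5%. Within other cells of the cultures Scn7a did not follow the glial list closely (rho 0.08 over 74 and 0.10 over 23 cells). In other cells of the naive groups rho was -0.03 over 16 and -0.19 over 18 cells. These naive cells also held neuron transcripts, so their Scn7a levels are not shown to come from glia. Scn4b in other cells was at 15.9 and 34.5 CPM in the naive and 2.77 and 12.4 CPM in the cultured groups, above the neuron-list level in C57BL/6 and below it in CAST/Ei. Without the richest cell of each sum the naive C57BL/6 ratio turned from -0.54 to 0.52.

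Naive neuron-list cells were then divided, within each strain, by the highest of 5 lists of subtype markers. The Th class (28 C57BL/6 and 29 CAST/Ei cells) stands for low-threshold C-fibre neurons, the Mrgprd class (28 and 47) for non-peptidergic nociceptors, the itch class (20 and 45) for pruriceptors and the peptidergic class (23 and 29) for neuropeptide-rich nociceptors. In C57BL/6, 27 of the 28 Th class cells belonged to the unnamed cluster 9, so results for that class rest on it. The class had medians of 2638 CPM of Th and 1243 CPM of Fam19a4, both genes of its own list. The neurofilament list marks large myelinated neurons. It scored highest in 17 C57BL/6 cells, whose median Nefh was 1602 CPM, but in CAST/Ei only in 6 cells, whose median Nefh was 99.3 and median Mrgpra3 626 CPM. The data go against the name in those 6, which are left aside here, and CAST/Ei thus had no counterpart of this class. Classes are ranges of a score: between 1 and 6 cells per class in C57BL/6 and between 2 and 19 in the other CAST/Ei classes lay near a cut.

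Scn10a and Scn11a shared 1 profile over the classes. The median of Scn10a was 513 and 478 CPM in the itch and Mrgprd classes of C57BL/6, 222 and 201 in the peptidergic and Th classes, and 3.7 in the neurofilament class, where 5 of 17 cells had no read. Scn11a gave 575, 512, 167.4, 149.4 and 6.17 CPM in the same order. In CAST/Ei Scn10a had medians of 671, 758, 308 and 374 CPM in the itch, Mrgprd, peptidergic and Th classes. Scn11a there had medians of 551, 554 and 144.4 CPM in the first 3, and its Th cells had an interquartile range of 136.9 to 238 CPM. Both channels were thus highest in Mrgprd and itch cells of both strains. Their lowest class, the C57BL/6 neurofilament cells, still had a median of 348 CPM of Scn9a.

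Scn9a and Scn7a both had the Th class in the lead but differed in the order of the rest, with C57BL/6 neurofilament cells last for Scn9a and next to Th cells for Scn7a. Scn9a had medians of 1033, 857, 803, 636 and 348 CPM in the Th, Mrgprd, itch, peptidergic and neurofilament classes of C57BL/6 and of 1409.8, 914, 881 and 770.0 CPM in the first 4 of CAST/Ei. Scn7a had 1534 CPM in Th cells of C57BL/6, 690.1 in neurofilament cells, and between 469 and 497 CPM in the other 3 classes. In CAST/Ei it had 1229 CPM in Th cells and between 323 and 330.1 CPM in the itch, Mrgprd and peptidergic classes. The interquartile range of Th cells for Scn7a (1244 to 2253 in C57BL/6, 1050.2 to 1389 in CAST/Ei) lay above that of every other class. Scn4b peaked instead in neurofilament cells of C57BL/6, with a median of 33.1 CPM, no cell without a read and a range of 2.63 to 341, while Th cells had 3.93 and the other 3 classes at most 0.214 CPM. In CAST/Ei Th cells had 88.2, itch cells 50.7, Mrgprd cells 28.3 and peptidergic cells 6.31 CPM.

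**Figure D3:**
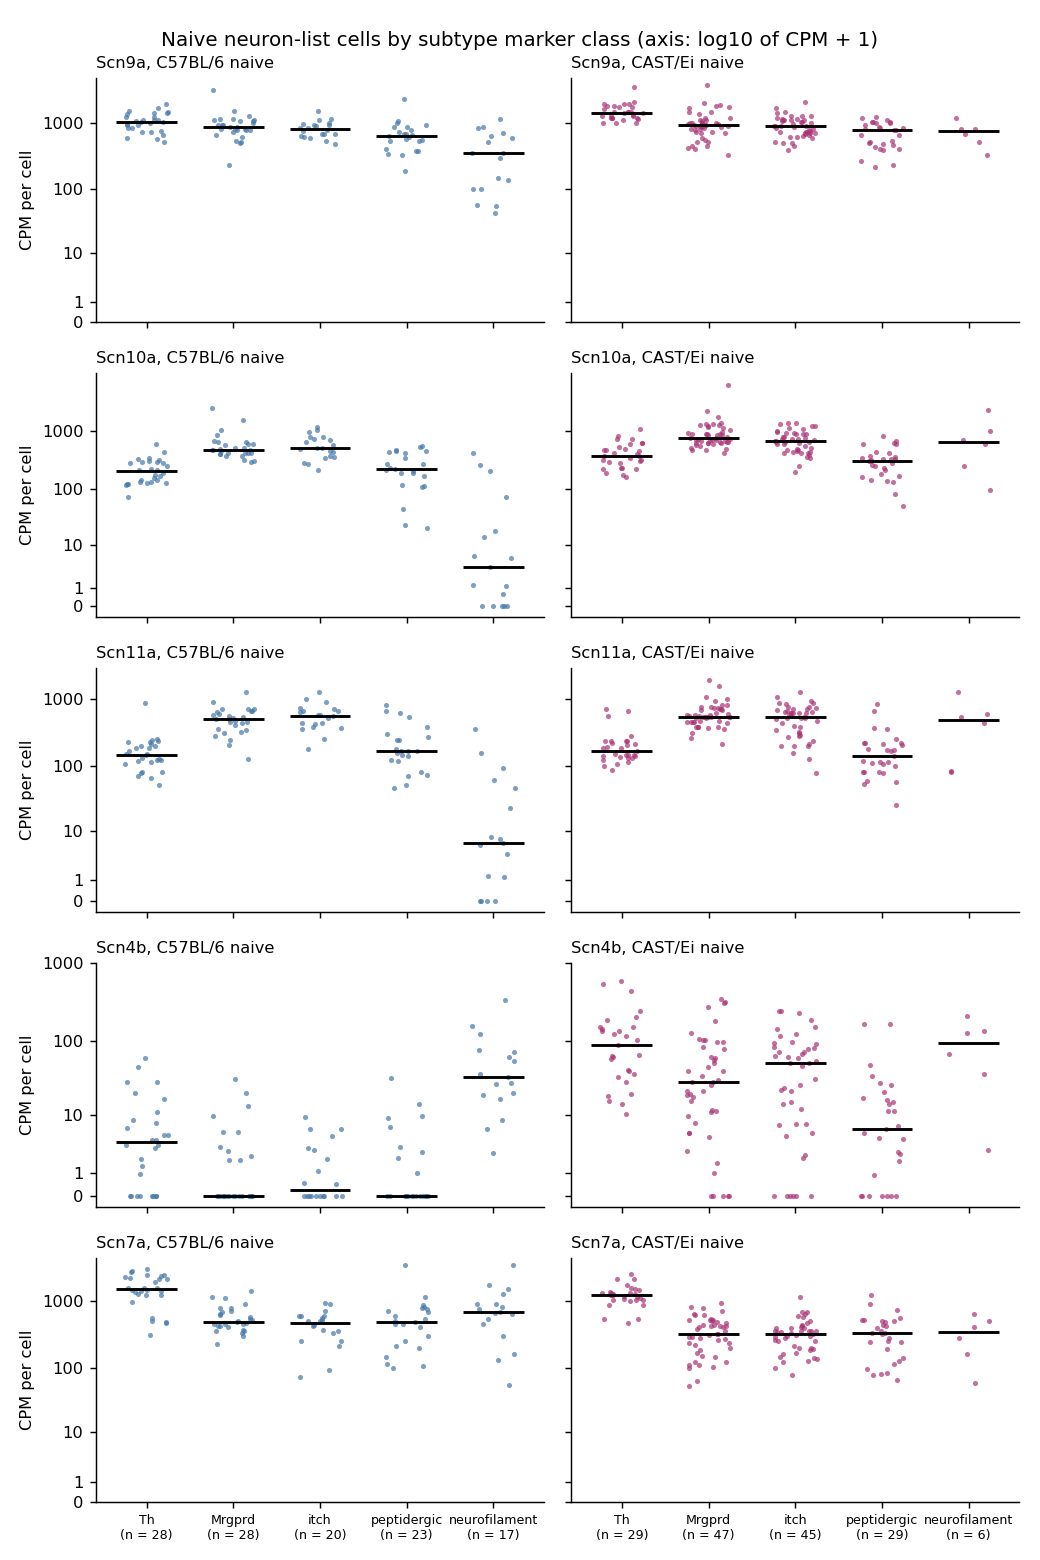
Levels of the 5 genes in naive neuron-list cells by subtype marker class and strain, in CPM on a log10 scale of CPM + 1, with medians as black lines. Scn10a and Scn11a reach 0 in C57BL/6 neurofilament cells, where Scn4b has no cell at 0, and the Th class is highest for Scn9a and Scn7a in both strains. The 6 CAST/Ei cells in the last column go against the name of their class.

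Because the classes were present in different numbers, strain differences were read within them as well. Over the 4 classes found in both strains, the CAST/Ei median was higher in 4 of 4 for Scn4b, Scn10a and Scn9a, lower in 4 of 4 for Scn7a, and higher in 2 and lower in 2 for Scn11a. The difference in Scn4b was thus not carried by 1 class: the medians were 88.2 against 3.93 CPM in Th cells, 50.7 against 0.214 in itch cells, 28.3 against 0 in Mrgprd cells and 6.31 against 0 in peptidergic cells. The class lists were scored within each strain, so a class need not hold the same cells in both.

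Cell by cell, Scn10a and Scn11a varied together in naive neurons, with Spearman rho of 0.83 in C57BL/6 and 0.81 in CAST/Ei, over 272 cells in all. In cultured cells the coefficients were 0.40 over 37 and 0.51 over 76. No gene was more like either of them: each ranked first for the other among 5862 candidate genes, whose mean coefficients had a median of 0.00 and a 99th percentile of 0.52 for Scn10a. Next for Scn10a came Gnao1 (a G protein subunit, mean 0.72), Eml1 (0.72), Plxnc1 (a semaphorin receptor and a marker in the Mrgprd list, 0.71) and Prkcd (a protein kinase C, 0.69), and for Scn11a Plxnc1 (0.78), Gnao1 (0.75), Eml1 (0.74) and Moxd1 (0.72). Scn9a and Scn7a correlated at 0.43 and 0.61 in naive and 0.55 and 0.62 in cultured cells. Those most like Scn9a were Cpne3 (0.66), Sdcbp (0.63), Ano3 (0.58), Ppp1r1c (0.57) and Ppef1 (0.56). For Scn7a they were Pou4f1 (a sensory neuron transcription factor, 0.64), AI593442 (0.64), Cdc42bpa (0.63), Atp2b1 (a calcium pump, 0.62) and Rbms3 (0.61). Scn4b had weaker likenesses, with Slc24a2 (0.49), Lrrn1 (0.47), Hebp2 (0.46), Nsf (0.46) and Plekhd1 (0.45) in the lead. It correlated with Scn10a at -0.38 in naive C57BL/6 cells but at 0.19 in CAST/Ei. Cells share their library preparation within a group, and depth moved with Scn9a and Scn7a in naive CAST/Ei cells (rho with reads per cell 0.44 and 0.50).

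**Figure D4:**
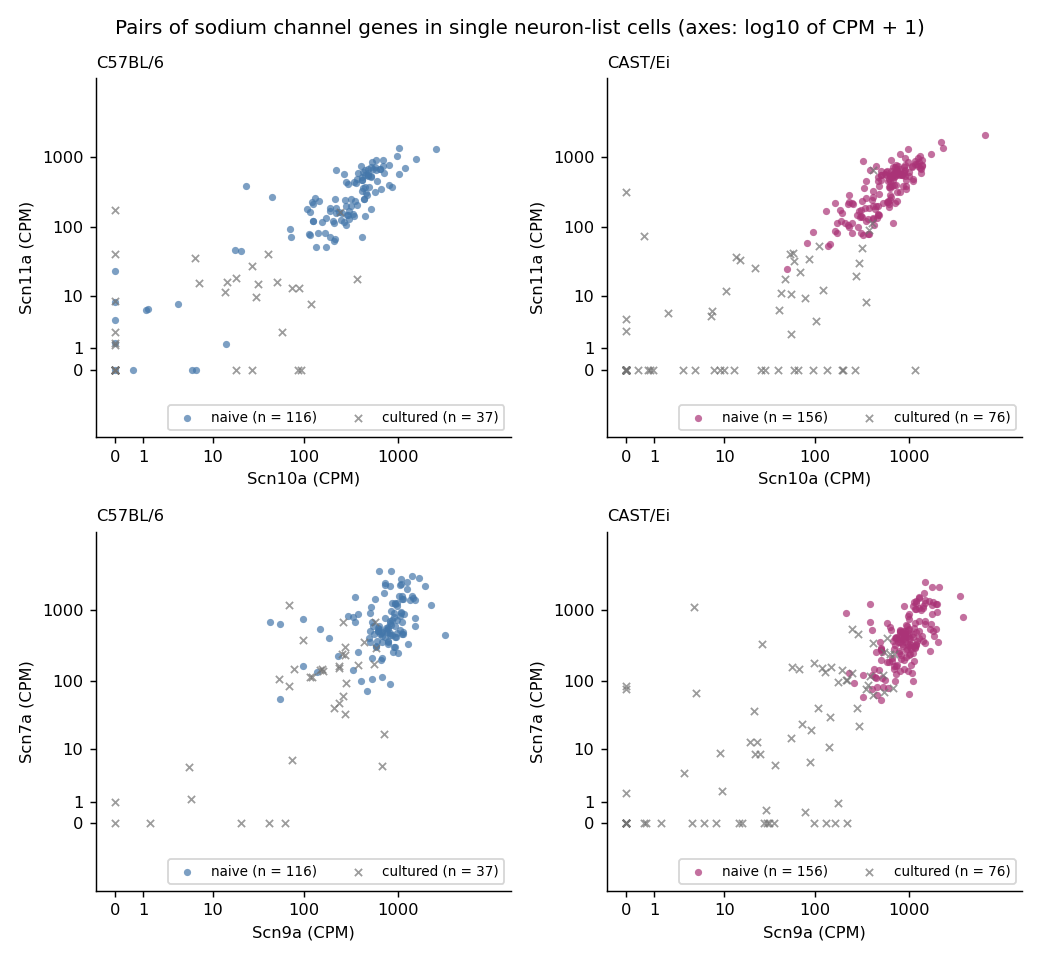
Scn11a against Scn10a (top) and Scn7a against Scn9a (bottom) in single neuron-list cells of C57BL/6 (left) and CAST/Ei (right), in CPM on log10 scales of CPM + 1, with naive cells as filled circles and cultured cells as crosses. Naive cells form a rising band for Scn10a and Scn11a (rho 0.83 and 0.81), and many cultured cells lie at 0 on 1 or both axes.

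Other sodium channel genes and their partners were read from a list of 52 genes, 47 of them in the table. After culture, levels past 2-fold were lower for 24 of 47 and higher for 5 in C57BL/6, and lower for 24 and higher for 6 in CAST/Ei, with median log2 ratios of -1.15 and -1.02. Of all genes tested, 23.6% were lower and 22.8% higher in C57BL/6, and 20.4% lower and 24.1% higher in CAST/Ei. Without the 5 genes above, 19 of 42 were lower and 5 higher in C57BL/6, and 20 lower and 6 higher in CAST/Ei. Of 8 alpha-type genes 6 and 8 were lower, Scn1a among them (Nav1.1, 95.5 to 5.65 CPM in C57BL/6 and 51 to 2.99 in CAST/Ei). The beta subunit Scn2b, next to Scn4b on the chromosome, went from 940.0 to 48.1 CPM in C57BL/6 and from 178.3 to 10.7 CPM in CAST/Ei, and Scn3b stood at 12.5 CPM in C57BL/6 culture (log2 ratio -3.13) and went from 203 to 12.2 CPM in CAST/Ei. Scn4b in CAST/Ei thus differed from both. The 2 measured intracellular FGFs, which bind the tails of alpha subunits, were lower as well: Fgf12 at 183.3 against 1720.2 CPM and 51.7 against 188.6, Fgf13 at 225 against 2109 and 638 against 3902. Among leak and pump genes 8 and 7 of 9 were lower. The leak channel Nalcn went from 59.2 to 3.14 and from 54.7 to 5.65 CPM, its partner Unc79 in CAST/Ei from 14.3 to 1.38 CPM, and the pump subunit Fxyd2 there from 3359.9 to 497 CPM.

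The genes of this list that were higher in culture, 5 and 6 against 22.8% and 24.1% of all genes, belonged to the adhesion and trafficking groups. Gldn (gliomedin, which clusters channels at nodes of Ranvier) went from 1.35 to 129.7 CPM in C57BL/6 and from 1.21 to 297 CPM in CAST/Ei. Other cells of the same cultures had 168.4 and 224 CPM, so Gldn was no higher in neurons by 2-fold. Kcna1, a potassium channel of the axon, went from 104.5 to 233 and from 64.1 to 454 CPM. Pdzd2, a scaffold protein reported to bind Nav1.8, went from 19.9 to 54.2 and from 17 to 35.9 CPM, where other cells of the cultures had 106.4 and 115.8 CPM. Nrcam, an adhesion molecule of the node, passed 2-fold only in C57BL/6 (26.3 to 83.6 CPM, with 103.8 CPM in other cells of that culture), and the calmodulin gene Calm3 only in CAST/Ei (453 CPM in culture, log2 ratio 1.52). The part of other cells in the levels of Gldn, Pdzd2 and Nrcam was not tested. Whether these strain differences exceed the spread between animals was not tested.

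**Figure D5:**
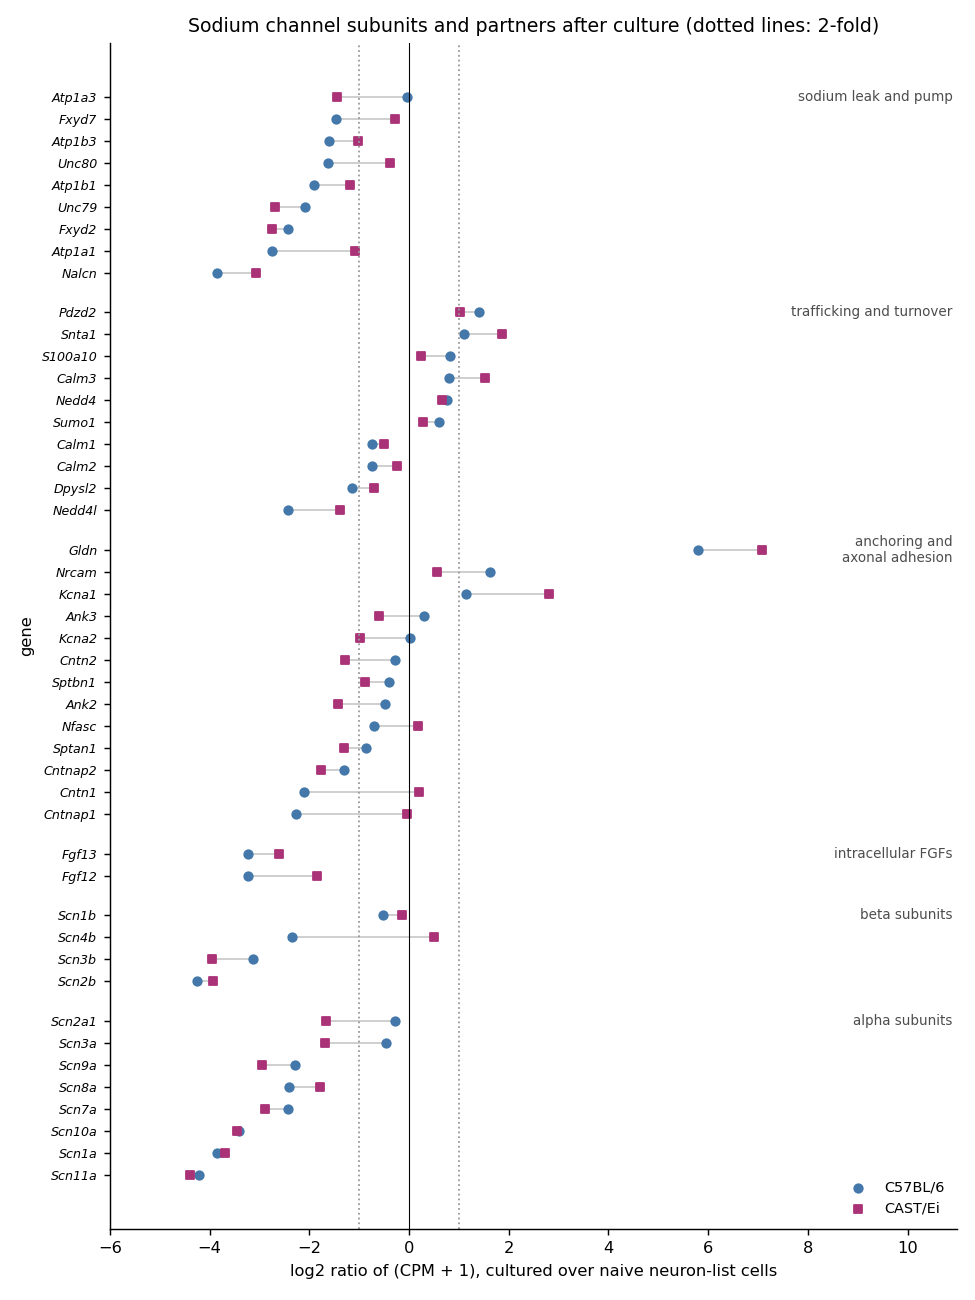
log2 ratio of CPM + 1 in cultured over naive neuron-list cells for listed genes measured, by role, in C57BL/6 (circles) and CAST/Ei (squares), with 2-fold as dotted lines. Alpha subunits and leak and pump genes lie mostly below the lower line, and Gldn lies farthest above the upper one.

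Between the naive strains 5 of the 42 other genes were lower in CAST/Ei by 2-fold or more and none higher, against 6.25% and 7.29% of all genes. Those named by rule were Fgf12 (188.6 against 1720.2 CPM), Scn2b (178.3 against 940.0), Cntn1 (155.7 against 559) and Nfasc (7.45 against 24.2), the last 2 being adhesion molecules of axons. On the 2 neighbouring beta subunit genes the strains thus lay in opposite order, with Scn2b higher in C57BL/6 and Scn4b higher in CAST/Ei, and the order was the same in culture (Scn2b 48.1 against 10.7 CPM, Scn4b 1.3 against 90.3). Between the cultured strains 3 of the 42 other genes were higher in CAST/Ei and 7 lower, against 21.8% and 14.3% of all genes. Fgf13 was among the higher (638 against 225 CPM), and Fgf12 (51.7 against 183.3) and the anchoring protein gene Ank3 (274 against 704) were among the lower.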

How the data were processed

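RNA of single dorsal root ganglion cells was captured on a microfluidic chip, amplified without molecular identifiers and sequenced, per the labels' protocols. The authors deposited a single table of raw counts of reads, with 11251 genes and 516 cells, and every column was used. The submitters' processing notes list Bowtie2, SAMtools and mm10. Which program counted reads, on which annotation and after which filters is not given in the sources used here. Bowtie2 leaves reads that span introns unjoined, which can lower counts. Every gene has a read in at least 60 cells.

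The members and gene lists were chosen with earlier results of these data known. Cells were clustered on log2(CPM + 1) of 2000 variable genes (20 components, 15 neighbours, Leiden resolution 1, leidenalg 0.10.2, scikit-learn 1.9.0). Reads were summed per group and class, given as CPM with exact Poisson intervals, and compared over genes with at least 1 CPM in either sum. No model was fitted. No doublet caller was run: neuron-list cells in the top 25% of glial expression were left out as an alternative. Named partners are those past 2-fold with at least 10 CPM in 1 sum, up to 6 per direction beside the 5 members; 1 that met this rule is counted but not reported here by name. The genes most like a member are the 5 with the highest mean of the 2 within-strain coefficients among genes with at least 20 CPM in both naive sums. Gene positions come from GENCODE vM21. On simulated counts for 11251 genes, the ratio step recovered the set changes, which checks its arithmetic only and not the cell classes or the lack of replicates. In all, 7 alternative settings chosen at the outset and 5 added after seeing the data were run.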

Additional observations from a re-analysis of the deposited data

Results flagged for a closer look

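Scn4b moved in opposite directions with culture in the 2 strains, with a log2 ratio of -2.34 in C57BL/6 and 0.50 in CAST/Ei neuron-list cells. The CAST/Ei value was -0.20 without the richest cell of each sum. Scn9a was higher in CAST/Ei than in C57BL/6 among naive cells (0.38) and lower among cultured cells (-0.29). Both values were within 2-fold, and the cultured one ran from -0.60 to 0.04 over the alternative settings. Scn4b was lower in neuron-list than in other cells in C57BL/6 and higher in CAST/Ei, at -0.54 and 0.87 in the naive and at -0.71 and 2.77 in the cultured groups. Only the value of 2.77 passed 2-fold. The naive C57BL/6 value was 0.52 without the richest cell of each sum, and the cultured C57BL/6 neuron-list level rested on 27 reads. With 1 sample per group, none of these differences was tested.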

How the results depend on the processing

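No paired analysis was possible because replicate numbers only name cells and each group is 1 sample. Of 40 ratios of the 5 genes, 24 passed 2-fold, and all 24 did so under 6 of the 7 settings chosen at the outset; at a pseudocount of 10 CPM 23 did, Scn4b in C57BL/6 culture being lost at -0.87. Of the settings chosen after seeing the data, cluster 2 alone as cultured neurons kept 14 of 16 calls and cluster 5 alone 15 of 16, and leaving out the cell with the most reads kept 24 of 24. With cluster 2 alone, Scn10a in C57BL/6 culture turned from 3.27 to -1.69 between neuron-list and other cells.

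Counts of listed channel and partner genes higher in culture were 5 in C57BL/6, against 3 by the mean of cells' own CPM, 2 by each cell's own marker means, 3 without the cells highest in glial markers and 3 with cluster 5 alone. In CAST/Ei they were 6, against 3 at a pseudocount of 10 CPM. Members higher in CAST/Ei culture numbered 0, against 1 without the cells highest in glial markers. Between cultured strains 0 were lower in CAST/Ei, against 1 by median-of-ratios scaling and 2 with cluster 2 alone, and 1 was higher, against 2 with cluster 2 alone, with cluster 5 alone or without the richest cells. Members lower in neuron-list cells of the C57BL/6 culture numbered 0, against 1 without the cells highest in glial markers, with cluster 2 alone or with cluster 5 alone. Members higher in neuron-list cells numbered 3 in naive CAST/Ei, against 5 by own marker means or without the richest cells, and 3 in cultured CAST/Ei, against 5 with Ward clusters. The cause was not tested. Median-of-ratios scaling moved the median of all genes from 0.10 to -0.01 in CAST/Ei culture and from 0.16 to -0.03 between cultured strains. Of 40 thinned shares, 5 left their interval at 200000 reads, 12 with detection from 1 read and 19 unthinned.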
